A study of Homo sapiens with 9 samples.

Results

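The genes of intraflagellar transport (IFT) and of its motors were compared in neuroectoderm, mesendoderm and the undifferentiated cells both were made from. The set holds 30 of the 21417 gene symbols in the table, chosen by name with earlier results of these data known. They are 6 of the IFT-A complex, its adapter TULP3, 11 of the IFT-B core, 6 of peripheral IFT-B, 4 of the kinesin-2 motors and 2 of the dynein-2 motor. Of these, 29 were found under their own symbol, and IFT22 was listed under RABL5, an older name that RefSeq gives as its synonym. For each gene the transcript row of highest mean was used, and all 30 passed the filter on low values.

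All cells were of H9, an established human embryonic stem cell line, so each group stands for 1 line. Neuroectoderm (NE) was taken at day 5 of treatment with 200 nM NOGGIN, a BMP antagonist, and 10 µM SB431542, an inhibitor of the activin and Nodal receptors. Mesendoderm (ME) was taken at day 5 of treatment with 5 ng/ml BMP4 in mTeSR1 medium. Untreated embryonic stem cells (hESC) were taken at day 0, grown in mTeSR1 on Matrigel. Each group had 3 libraries of total RNA, and nothing in the labels says whether these were separate cultures. The p-values therefore rest on the spread among libraries, part of which may be technical. The series title ties the cilium to neural fate, and the comparisons below ask which parts of the transport machinery differed between the lineages.

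As background, a primary cilium is a single microtubule-based projection that most cells build when they leave the cell cycle, and neural precursors read Hedgehog signals through it. Cargo moves along it on trains of IFT-B and IFT-A proteins. Kinesin-2 drives the trains from the base to the tip, and dynein-2 brings them back with IFT-A. IFT-B carries tubulin and builds the axoneme, whereas IFT-A with TULP3 also brings membrane receptors into the cilium.

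Transcription factors of the RFX family bind a motif called the X-box in the promoters of many ciliary genes, so the promoters of the members were searched for it. The 250 bases before each start were taken from RefSeq on build GRCh38.p14, which held 28 of the 30 members (not WDR35 or IFT22). The full motif was spelled GTNNCC, 0 to 3 bases of any kind, then GGNAAC, on both strands. It was found in 3 of 28 members (10.7%), against 3.24% of the 10981 tested genes with a promoter and 2.53% of all 27305 genes of the promoter table. These 3 windows are shown because their genes carry the full motif. Capitals mark the match, each line reads 5′ to 3′ on the gene's own strand, and IFT74 has further listed starts without a match.
IFT74, chr9:26956332-26956411, plus strand: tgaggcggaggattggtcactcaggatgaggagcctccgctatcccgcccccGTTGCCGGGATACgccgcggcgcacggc
TTC26, chr7:139133698-139133777, plus strand: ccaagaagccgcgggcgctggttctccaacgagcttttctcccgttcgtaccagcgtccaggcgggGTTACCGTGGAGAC
IFT57, chr3:108222425-108222504, minus strand: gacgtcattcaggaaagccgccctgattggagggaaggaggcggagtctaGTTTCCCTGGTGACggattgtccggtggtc

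A shorter RFX motif, GTTGCC or GTTACC on either strand, which can lie inside the full motif, was found in 14 of 28 members (50%). Its share was 19.0% of the tested genes and 17.7% of all genes of the promoter table. It stood in 7 of 10 IFT-B core promoters, 1 of 6 of peripheral IFT-B, 1 of 5 of IFT-A, 2 of 4 of kinesin-2, both of dynein-2 and that of TULP3. It was in 7 of the 15 members higher in NE than in both other groups and in 7 of the other 13 members with a promoter. The 6 of those 15 that held it without a full motif are shown as examples of where it lies. Capitals mark 1 match in each 60-base window, and the TTC30A window holds another in lower case.
IFT46, chr11:118566095-118566154, minus strand: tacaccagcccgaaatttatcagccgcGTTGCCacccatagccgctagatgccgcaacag
TTC30A, chr2:177618743-177618802, minus strand: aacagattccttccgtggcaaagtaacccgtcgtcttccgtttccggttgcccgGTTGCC
TTC30B, chr2:177552797-177552856, minus strand: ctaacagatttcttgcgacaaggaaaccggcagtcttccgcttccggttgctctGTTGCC
CLUAP1, chr16:3500944-3501003, plus strand: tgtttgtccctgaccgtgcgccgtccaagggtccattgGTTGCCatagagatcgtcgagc
DYNC2H1, chr11:103109348-103109407, plus strand: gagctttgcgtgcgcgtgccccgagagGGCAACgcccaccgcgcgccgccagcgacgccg
DYNC2LI1, chr2:43773979-43774038, plus strand: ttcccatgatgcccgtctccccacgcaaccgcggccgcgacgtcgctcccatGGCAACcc
In TTC30A and TTC30B, near copies of each other, the match ends at the last bases before the start. A match describes letters in a window and is not a measured binding site.

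The values are RPKM as deposited, reads divided by the length of the transcript and the size of the library. Depth worked back from short genes was about 36900000 to 69800000 reads a library, at which 3 reads on a 1 kb transcript equal 0.043 to 0.0814 RPKM, and the lowest value of any member in any library was 0.56 RPKM. Of 8 listed neuroectoderm markers, 7 were tested and all 7 were higher in NE than in hESC. LHX2 did not pass the filter, at 0.04 to 0.2 RPKM in NE. All 8 mesendoderm markers were higher in ME than in hESC. However, GSC, MSX2 and WNT3 were also higher in NE than in hESC, and MEIS2 was also higher in ME. In NE against ME, those 7 were all higher and those 8 all lower. Markers low in hESC, such as PAX6 and T, passed the filter only through the group where they were high. Their counts are thus no test of the labels. The summed level of the trophoblast and amnion markers was 1.28 to 1.55 RPKM in NE, 131.9 to 228.5 RPKM in ME and 6.04 to 8.2 RPKM in hESC, with 8 of 8 tested markers higher in ME than in hESC. Of these 8 markers, all but KRT7 passed the filter only through ME. Their part in the ME results was not tested. In bulk RNA, fewer cells with a cilium and less RNA per cell cannot be told apart.

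In every group 1 library stood apart on the third principal component (12.3% of the variance): NE replicate 1, ME replicate 1 and hESC replicate 2. Their deviations from the group mean ran against GC content over 13874 genes (Spearman −0.563, −0.29 and −0.619), while those of the other 6 libraries ran with it (0.195 to 0.587). Over the 30 members the values were −0.729, −0.458 and −0.759, against 0.01 to 0.756 in the other 6 libraries. Deviations within a group cancel out for each gene, so the opposite sign of the other 6 libraries is largely set in advance. In NE replicate 1, relative to the mean of NE replicates 2 and 3, KIF3A was at 1.63 times (GC 37.8%) and DYNC2H1 at 1.49 times (GC 38.3%), whereas IFT27 was at 0.378 times (GC 58.7%) and IFT43 at 0.475 times (GC 51.5%). Counts without these 3 libraries are given beside each comparison.

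**Figure D1:**
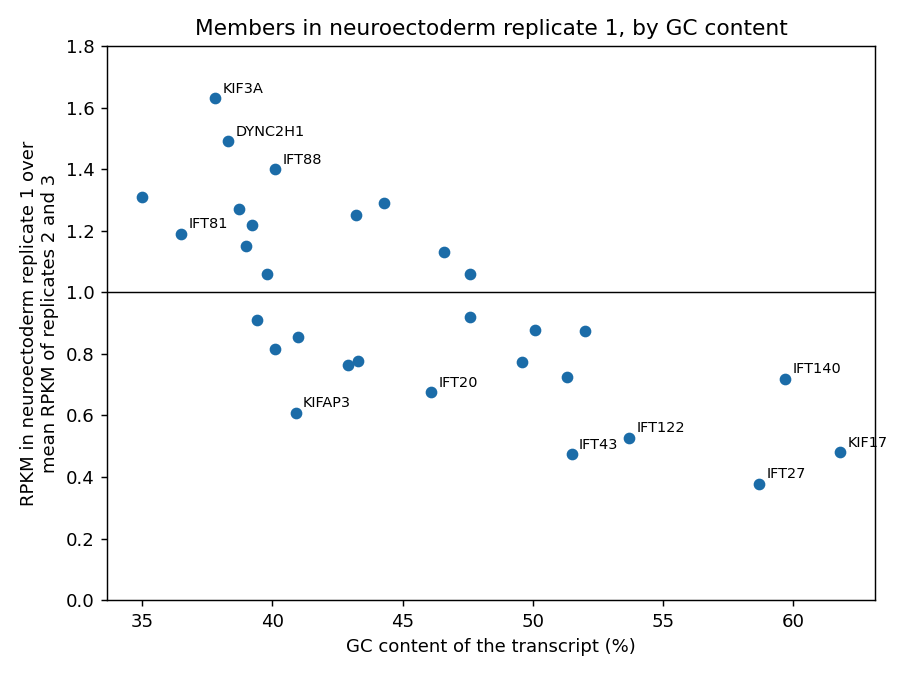
For each of the 30 members, the level in NE replicate 1 divided by the mean level of NE replicates 2 and 3 (vertical axis, a ratio on a linear scale from 0) is plotted against the GC content of its transcript in percent (horizontal axis). GC-poor members such as KIF3A (1.63 times) and DYNC2H1 (1.49 times) lie above 1, and GC-rich ones such as KIF17 (0.481 times) and IFT140 (0.719 times) lie below it.

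In NE against hESC, most of the transport machinery was higher and no member was called lower, though KIF17 was in 4 other settings. With limma on log2(RPKM + 1) over 14473 genes and Benjamini-Hochberg adjusted p under 0.05, 21 of 30 members were higher, against 21.9% of all genes tested higher and 22.3% lower. By unadjusted p under 0.05, 25 members were higher and 1, KIF17, lower. The share of all genes at that looser threshold was not worked out, and the shares above do not apply to it. The median log2 difference of the members was 0.59, against −0.02 for all genes tested. The summed level of the 30 members was 223, 244.6 and 240 RPKM in NE, against 149.3, 145.8 and 146.8 RPKM in hESC. The 2 groups' libraries did not overlap for 22 members that were higher in NE and for 1 that was lower; the shares over all genes were 25.4% and 26.5%. The count of higher members was 15 when small RNA genes were left out and the rest rescaled. That setting moved the median of all genes to −0.12 and called 40.6% of them in either direction. The count was 23 without the 3 libraries that stood apart, where calls in either direction rose from 44.2% to 58.6% of all genes.

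In ME against hESC, single members moved in both directions and the summed level differed little. Of the 30 members, 5 were higher and 6 lower by the same test, against 17% of all genes higher and 18.1% lower, so the members' share was near that of all genes. By unadjusted p under 0.05 the counts were 7 and 7, again without a share of all genes at that threshold. The median log2 difference was −0.03, against −0.02 for all genes tested. The summed level was 143.8, 140.2 and 141.8 RPKM in ME, against 149.3, 145.8 and 146.8 RPKM in hESC. Libraries did not overlap for 7 higher and 8 lower members, against 26% and 28.7% of all genes. The counts were 6 higher and 10 lower without the 3 libraries that stood apart, where calls in either direction rose from 35.1% to 47.1% of all genes. The count of higher members was 1 when small RNA genes were left out and the rest rescaled. Calls in either direction were then 32.7% of all genes.

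In NE against ME, 20 of 30 members were higher and none lower by limma, against 24% of all genes higher and 24.1% lower. By unadjusted p under 0.05 the counts were 22 higher and 0 lower, again without a share of all genes at that threshold. The median log2 difference was 0.69, against −0.01 for all genes. Libraries did not overlap for 22 higher members and for no lower one, against 27.8% and 29.4% of all genes. Without the 3 libraries that stood apart, 25 members were higher, while calls in either direction rose from 48.1% to 60.8% of all genes. Both contrasts with hESC use the same hESC libraries, so the values below are given side by side.

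**Figure D2:**
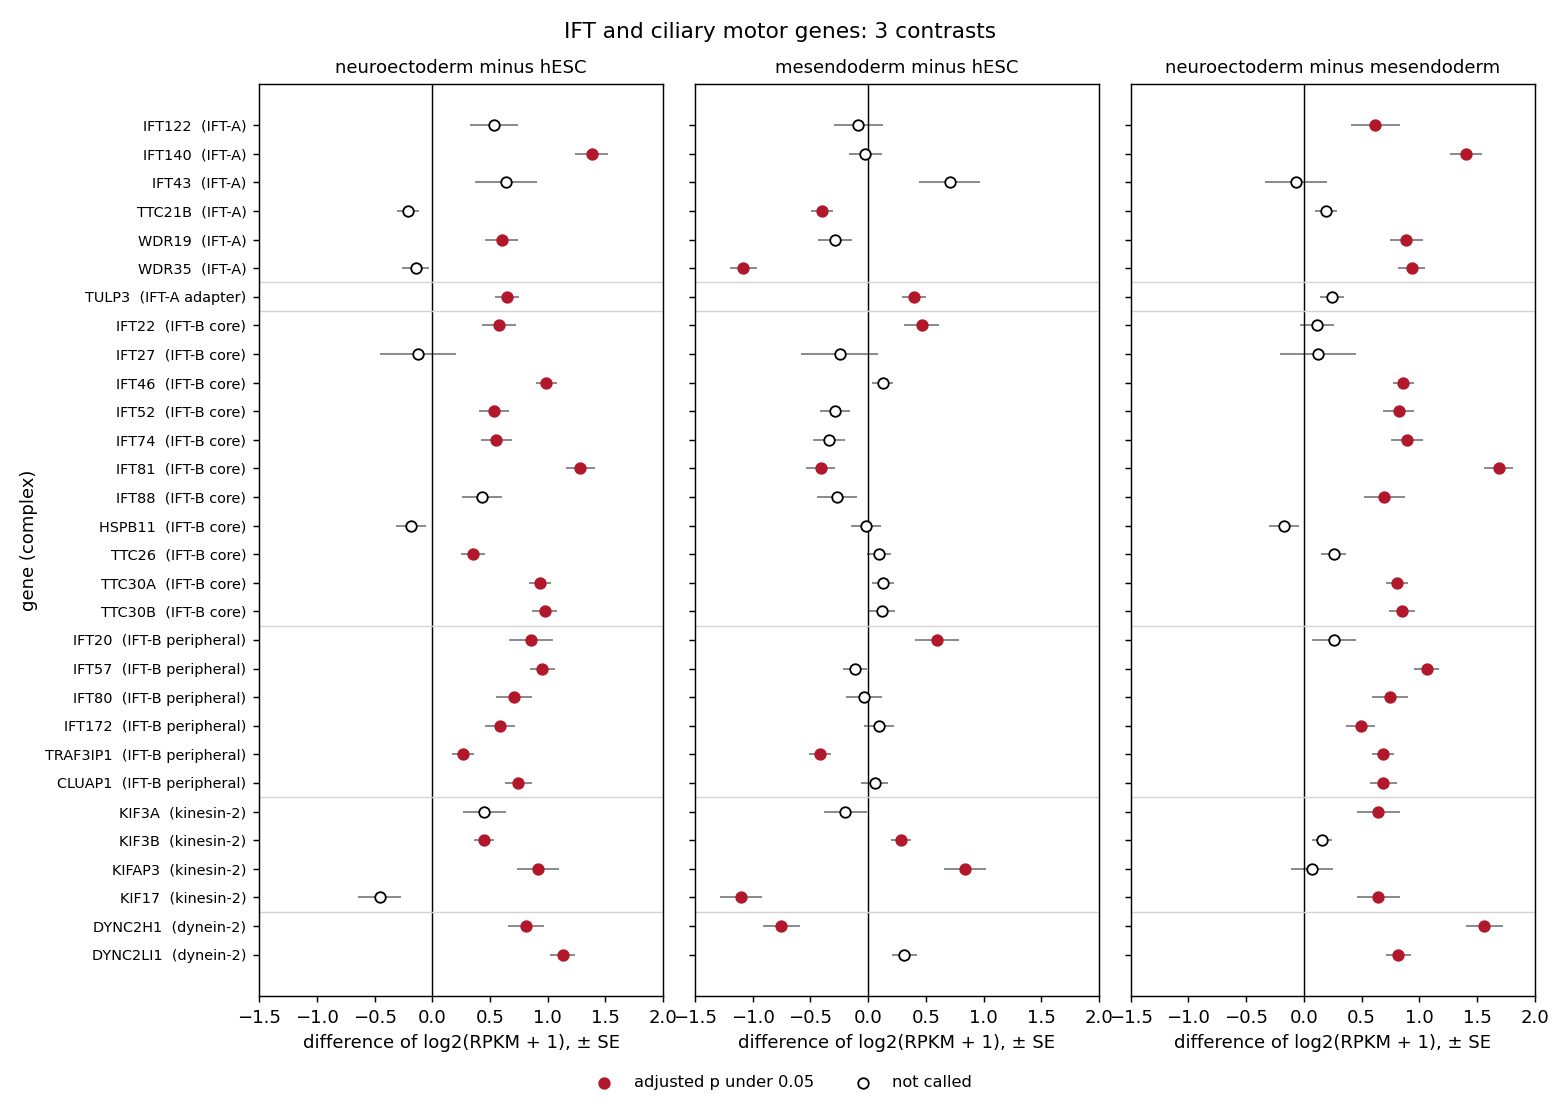
Log2 difference of each of the 30 members in the 3 comparisons, grouped by complex, with standard errors from the fit over all genes; filled points passed the adjusted p threshold of 0.05. The filled points of NE against hESC and of NE against ME all lie above 0, while those of ME against hESC lie on both sides.

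Of the 6 IFT-A subunits, 2 were higher in NE than in hESC, and IFT140 had the largest difference of all members on the log2(RPKM + 1) scale. In the ratio of mean RPKM in NE over hESC, TTC30B (3.05), KIFAP3 (3.04) and TTC30A (2.97) were above IFT140 (2.88). IFT140, a core IFT-A subunit, was at 14.85, 21.46 and 19.87 RPKM in NE, 6.76, 6.13 and 6.24 RPKM in ME and 6.83, 5.72 and 6.99 RPKM in hESC. All NE libraries lay above all others, and ME and hESC overlapped. On the log2 scale the difference was 1.38 ± 0.14 (SE, n = 3 each; limma adjusted p = 6.6e-05) in NE against hESC and 1.40 ± 0.14 (limma adjusted p = 4.61e-05) in NE against ME. In ME against hESC it was −0.02 (limma adjusted p = 0.92). WDR19, also known as IFT144, was at 8.07, 6.62 and 6.32 RPKM in NE, 4.13, 2.62 and 3.31 RPKM in ME and 3.96, 4.73 and 4.1 RPKM in hESC. Here too every NE library was above all others. The log2 difference was 0.60 ± 0.14 (limma adjusted p = 0.00864) in NE against hESC and 0.89 ± 0.14 (limma adjusted p = 0.000925) in NE against ME.

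The other IFT-A subunits did not follow that pattern. WDR35, or IFT121, was at 6.59, 5.43 and 5.39 RPKM in NE, 2.54, 2.62 and 2.48 RPKM in ME and 5.68, 7.61 and 6.32 RPKM in hESC. ME was below both other groups with no overlap, while NE and hESC overlapped. The fitted log2 difference was −1.08 ± 0.12 (limma adjusted p = 0.000125) in ME against hESC, 0.94 ± 0.12 (limma adjusted p = 0.000182) in NE against ME and −0.14 ± 0.12 (limma adjusted p = 0.353) in NE against hESC. TTC21B, or IFT139, was at 4.22, 4.04 and 3.91 RPKM in NE, 3.24, 3.74 and 3.33 RPKM in ME and 4.63, 5.49 and 4.5 RPKM in hESC. It was lower in ME than in hESC by −0.40 ± 0.10 on the log2 scale (limma adjusted p = 0.0106), and the NE libraries lay between the other groups. IFT122 and IFT43 were not called in NE against hESC, and in both NE replicate 1 was far below its partners. IFT122 averaged 11 ± 3.68 RPKM in NE, 6.55 ± 0.371 RPKM in ME and 7.01 ± 0.617 RPKM in hESC (SD, n = 3 each), and IFT43 averaged 9.72 ± 3.78 RPKM in NE, 9.74 ± 0.503 RPKM in ME and 5.7 ± 1.55 RPKM in hESC. Without NE replicate 1 both passed in NE against hESC (limma adjusted p = 0.000312 for IFT122 and 0.00257 for IFT43), as did IFT43 in ME against hESC (limma adjusted p = 0.00759 without NE replicate 1 and 0.0461 without NE replicate 2). Leaving out NE replicate 1 raised calls in either direction from 44.2% to 51.3% of all genes in NE against hESC. The rise was from 35.1% to 46.4% in ME against hESC and from 48.1% to 51.9% in NE against ME. Calls gained below without that library come with this rise. IFT122 was higher in NE than in ME (limma adjusted p = 0.0373), a call lost without hESC replicate 1 or 3, NE replicate 2 or 3, or each ME replicate in turn (0.0533 to 0.114) and with a replicate block over NE and ME alone (0.0559), with only these groups in the fit (0.0781) and with no filter (0.0504).

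TULP3, which tethers membrane cargo to IFT-A, was higher in both derived groups. Its levels were 10.33, 11.14 and 12.43 RPKM in NE, 9.42, 9.1 and 9.53 RPKM in ME and 6.24, 7.66 and 6.67 RPKM in hESC. No library of either derived group fell within the hESC range. The log2 difference was 0.65 ± 0.10 (limma adjusted p = 0.00105) in NE against hESC and 0.40 ± 0.10 (limma adjusted p = 0.0164) in ME against hESC, and in NE against ME it was 0.25 ± 0.10 (limma adjusted p = 0.0827). The ME call was lost without hESC replicate 1 (0.0632), hESC replicate 3 (0.0616) or ME replicate 3 (0.0634) and with small RNA genes dropped (0.265), and the NE against ME comparison passed without NE replicate 1 (0.0365).

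Of the 11 IFT-B core genes, 8 were higher in NE than in hESC and 7 were higher in NE than in ME. The summed level of the core was 98.85, 98.86 and 98.94 RPKM in NE, 59.82, 59.87 and 60.16 RPKM in ME and 70.06, 63.78 and 64.73 RPKM in hESC. IFT81, which binds tubulin together with IFT74, was at 15.95, 12.36 and 14.43 RPKM in NE, 3.83, 3.57 and 3.73 RPKM in ME and 4.79, 6.29 and 4.78 RPKM in hESC. The 3 groups did not overlap, with NE highest and ME lowest. This gave a log2 difference of 1.28 ± 0.13 (limma adjusted p = 5.25e-05) in NE against hESC, −0.41 ± 0.13 (limma adjusted p = 0.0339) in ME against hESC and 1.69 ± 0.13 (limma adjusted p = 6.76e-06) in NE against ME. The ME call was lost without hESC replicate 2 or 3, NE replicate 3 or each ME replicate in turn (0.0518 to 0.102), with median-of-ratios scaling (0.0881) and with a replicate block (0.0785).

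IFT74, the partner of IFT81 and one of the full-motif promoters above, was at 11.87, 8.39 and 10.26 RPKM in NE, 5.64, 4.33 and 4.99 RPKM in ME and 6.66, 6.98 and 6.01 RPKM in hESC. Its NE libraries were above all others, and it shares 9.38% of its exon bases with PLAA. Its log2 difference was 0.56 ± 0.14 (limma adjusted p = 0.00982) in NE against hESC and 0.89 ± 0.14 (limma adjusted p = 0.000641) in NE against ME. In ME against hESC it was −0.34 (limma adjusted p = 0.0868; 0.0383 without NE replicate 1). IFT46, a core subunit that in Chlamydomonas carries outer dynein arms, was at 11.06, 11.93 and 12.08 RPKM in NE, 6.12, 5.89 and 5.92 RPKM in ME and 5.92, 5.02 and 5.26 RPKM in hESC. NE stood clear of both other groups, which overlapped. On the log2 scale the difference was 0.99 ± 0.09 (limma adjusted p = 3.07e-05) in NE against hESC and 0.86 ± 0.09 (limma adjusted p = 5.56e-05) in NE against ME.

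IFT22, a small GTPase-like subunit, was one of the members higher in both derived groups. It was at 3.79, 5.24 and 4.54 RPKM in NE, 3.12, 4.73 and 4.52 RPKM in ME and 2.93, 2.46 and 2.65 RPKM in hESC. The derived groups overlapped each other and lay above hESC. The log2 difference was 0.58 ± 0.15 (limma adjusted p = 0.0122) in NE against hESC and 0.46 ± 0.15 (limma adjusted p = 0.0391) in ME against hESC. The ME call was lost without each hESC replicate in turn, NE replicate 3, or ME replicate 2 or 3 (0.0593 to 0.135), with small RNA genes dropped (0.0856), with no filter (0.0581) and with a replicate block (0.0544). IFT88, whose loss in the mouse is a classic cause of absent cilia, was at 4.22, 3.22 and 2.82 RPKM in NE, 2.43, 1.26 and 1.54 RPKM in ME and 2.5, 2.4 and 1.89 RPKM in hESC. NE was above both groups in every library, and the log2 difference was 0.70 ± 0.18 (limma adjusted p = 0.0101) in NE against ME and 0.43 ± 0.18 (limma adjusted p = 0.0773; 0.0395 without ME replicate 1) in NE against hESC.

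TTC30A and TTC30B, which encode the near-identical IFT70 proteins, averaged 2.55 ± 0.214 and 2.73 ± 0.378 RPKM in NE, 1.03 ± 0.1 and 1.06 ± 0.189 RPKM in ME, and 0.857 ± 0.146 and 0.893 ± 0.11 RPKM in hESC (SD, n = 3 each). Both were higher in NE than in either other group, by a log2 difference of 0.94 ± 0.09 for TTC30A and 0.97 ± 0.11 for TTC30B against hESC (limma adjusted p = 6.06e-05 and 0.000121). Their separate values are uncertain, since 10.6% of the 50-base stretches of the TTC30A transcript and 15.8% of those of TTC30B occur in the other, and reads there could be counted for either. IFT52, a scaffold of the core, was the most abundant member in all 3 groups at 25.3 ± 3.89 RPKM in NE, 13.8 ± 1.68 RPKM in ME and 17.0 ± 0.333 RPKM in hESC. It was higher in NE than in hESC by 0.54 ± 0.13 on the log2 scale (limma adjusted p = 0.01) and than in ME by 0.82 ± 0.13 (limma adjusted p = 0.000876), and it passed as lower in ME than in hESC without NE replicate 1 (0.0389). TTC26, or IFT56, was higher in NE than in hESC by 0.35 ± 0.10 (limma adjusted p = 0.0227), a call lost without each hESC replicate in turn or without NE replicate 2 or 3 (0.0501 to 0.0782), with small RNA genes dropped (0.189) and with a replicate block (0.0576). It passed in NE against ME without NE replicate 1 (0.0266) or ME replicate 1 (0.032). IFT27, a Rab-like GTPase, and HSPB11, or IFT25, which pair with each other, were called in none of the 3 comparisons. IFT27 ranged from 4.91 to 15.06 RPKM among the NE libraries alone, and HSPB11 averaged 10.9 ± 0.945 RPKM in NE, 12.4 ± 1.14 RPKM in ME and 12.6 ± 1.97 RPKM in hESC.

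**Figure D3:**
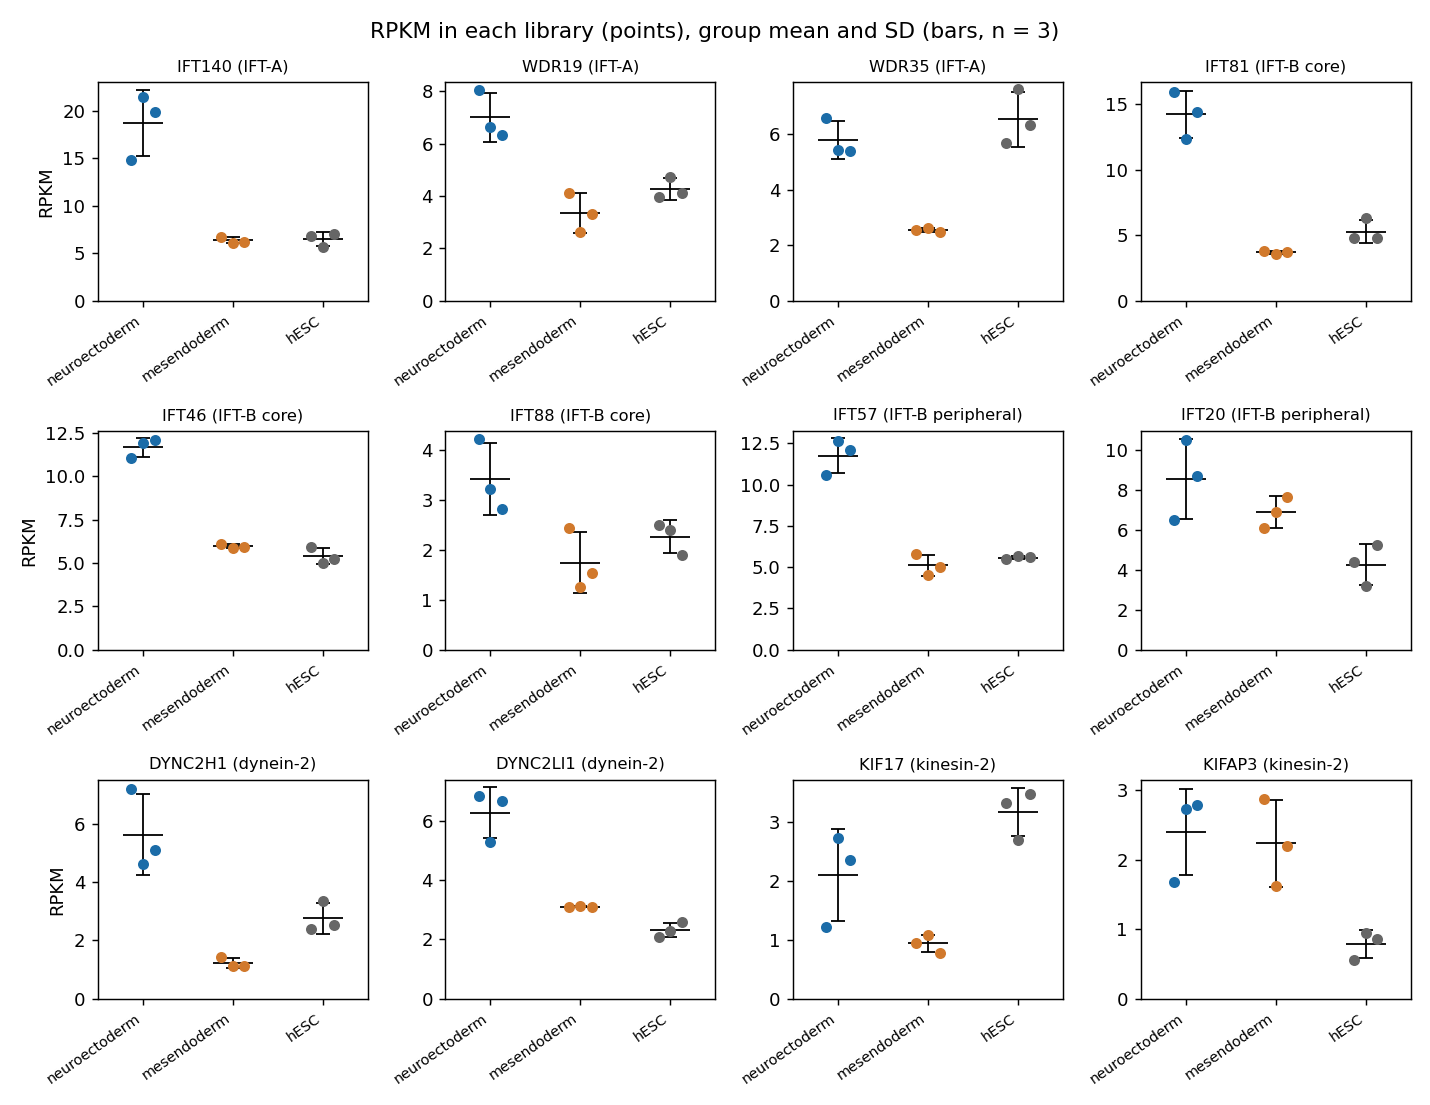
Levels in RPKM of 12 members in every library, with NE at the left, ME next and hESC at the right of each panel; points are libraries, and bars show the group mean and SD (n = 3). IFT140, WDR19, IFT81, IFT46, IFT57 and DYNC2LI1 have all NE libraries above all others, while in WDR35 and KIF17 the ME libraries lie below all others.

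All 6 peripheral IFT-B genes were higher in NE than in hESC, and 5 of 6 were higher in NE than in ME. IFT57, a subunit known in zebrafish to bear on kinesin-2 release from the train, also carries the full motif shown above. It was at 10.57, 12.61 and 12.09 RPKM in NE, 5.81, 4.53 and 4.98 RPKM in ME and 5.47, 5.67 and 5.59 RPKM in hESC. Every NE library was above all libraries of the other groups, and ME and hESC overlapped. The log2 difference was 0.95 ± 0.11 (limma adjusted p = 0.000115) in NE against hESC and 1.06 ± 0.11 (limma adjusted p = 4.5e-05) in NE against ME. IFT20, which is also found at the Golgi where it helps sort ciliary membrane proteins, was at 6.47, 10.47 and 8.7 RPKM in NE, 6.07, 6.88 and 7.65 RPKM in ME and 4.39, 3.17 and 5.21 RPKM in hESC. Both derived groups were above hESC and overlapped each other. The log2 difference was 0.86 ± 0.19 (limma adjusted p = 0.0059) in NE against hESC and 0.60 ± 0.19 (limma adjusted p = 0.0383) in ME against hESC. The ME call was lost without hESC replicate 1 or 2, NE replicate 3 or each ME replicate in turn (0.0565 to 0.129), with small RNA genes dropped (0.0554), with no filter (0.0516) and with a replicate block (0.0544). Of its exons, 23.8% of the bases are shared with TMEM97 on the opposite strand.

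IFT80, a subunit tied to skeletal ciliopathy, was at 8.86, 6.02 and 7.55 RPKM in NE, 4.27, 3.71 and 4.03 RPKM in ME and 3.61, 5.24 and 3.69 RPKM in hESC. NE did not overlap the other groups. The fitted log2 difference was 0.71 ± 0.16 (limma adjusted p = 0.00571) in NE against hESC and 0.75 ± 0.16 (limma adjusted p = 0.00386) in NE against ME, but 46.6% of its exon bases are shared with other genes, among them SMC4 on the opposite strand. TRAF3IP1, or IFT54, which binds microtubules, was at 3.95, 3.48 and 3.51 RPKM in NE, 1.69, 2.16 and 1.83 RPKM in ME and 2.72, 3.09 and 2.77 RPKM in hESC. The 3 groups did not overlap, with ME lowest. It was lower in ME than in hESC by −0.42 ± 0.09 on the log2 scale (limma adjusted p = 0.00862) and higher in NE than in ME by 0.69 ± 0.09 (limma adjusted p = 0.00035). In NE against hESC it passed narrowly at 0.27 ± 0.09 (limma adjusted p = 0.0471), and the call was lost without hESC replicate 1 or 3, each NE replicate in turn, or ME replicate 3 (0.0713 to 0.133) and in 7 other settings (0.052 to 0.395). IFT172, the largest peripheral subunit, averaged 5.32 ± 1.08 RPKM in NE, 3.46 ± 0.195 RPKM in ME and 3.18 ± 0.276 RPKM in hESC, and CLUAP1, or IFT38, averaged 4.65 ± 0.705 RPKM in NE, 2.49 ± 0.265 RPKM in ME and 2.36 ± 0.235 RPKM in hESC (SD, n = 3 each). Both were higher in NE than in hESC (log2 difference 0.59 and 0.74, limma adjusted p = 0.00549 and 0.000881) and than in ME (0.49 and 0.69, limma adjusted p = 0.0119 and 0.00121), with neither called in ME against hESC.

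The 4 kinesin-2 genes did not move as a unit. KIF3B and KIFAP3, a motor subunit and the adapter of the heterotrimeric motor, were higher in both derived groups, while KIF3A, the other motor subunit, and KIF17, the homodimeric motor, differed between NE and ME. KIFAP3 was at 1.68, 2.73 and 2.79 RPKM in NE, 2.88, 1.62 and 2.2 RPKM in ME and 0.56, 0.95 and 0.86 RPKM in hESC. All derived libraries were above all hESC libraries, and NE and ME overlapped. This gave a log2 difference of 0.91 ± 0.18 (limma adjusted p = 0.00346) in NE against hESC and 0.84 ± 0.18 (limma adjusted p = 0.00702) in ME against hESC. KIF3B was at 9.71, 9.22 and 9.06 RPKM in NE, 8.72, 7.74 and 8.34 RPKM in ME and 6.19, 6.86 and 6.71 RPKM in hESC. The 3 groups did not overlap, with hESC lowest. Its log2 difference was 0.45 ± 0.09 (limma adjusted p = 0.00313) in NE against hESC and 0.29 ± 0.09 (limma adjusted p = 0.0316) in ME against hESC, and the ME call was lost without hESC replicate 1 or 3, NE replicate 3, or ME replicate 1 or 3 (0.0524 to 0.104). It was also lost with median-of-ratios scaling (0.0694), with a replicate block (0.0835) and with small RNA genes dropped, where the difference was 0.16 (0.513).

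KIF3A was at 3.05, 1.6 and 2.14 RPKM in NE, 1.22, 0.73 and 1.25 RPKM in ME and 1.23, 1.79 and 1.09 RPKM in hESC. NE lay above ME but overlapped hESC. On the log2 scale the difference was 0.65 ± 0.19 (limma adjusted p = 0.0189; 0.0695 without ME replicate 2) in NE against ME and 0.45 ± 0.19 (limma adjusted p = 0.0812; 0.0332 without NE replicate 2) in NE against hESC. KIF17 was at 1.22, 2.72 and 2.35 RPKM in NE, 0.95, 1.08 and 0.78 RPKM in ME and 3.32, 2.7 and 3.47 RPKM in hESC. ME was below every library of the other groups, and NE and hESC overlapped by a narrow margin. The fitted log2 difference was −1.10 ± 0.18 (limma adjusted p = 0.00166) in ME against hESC, 0.65 ± 0.18 (limma adjusted p = 0.0175) in NE against ME and −0.46 ± 0.18 (limma adjusted p = 0.073) in NE against hESC. The NE against ME call was lost without NE replicate 2 (0.0541), NE replicate 3 (0.0611) or ME replicate 3 (0.0642). The gene passed as lower in NE than in hESC without NE replicate 2 (0.0302) and without the 3 libraries that stood apart (0.0498). The same held with small RNA genes dropped (0.019) and with median-of-ratios scaling (0.0403).

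Both dynein-2 genes of the set were higher in NE than in either other group. Both carry the shorter motif shown above, which did not follow the calls. It was in 7 of 15 members higher in NE than in both other groups and in 7 of the other 13 members with a promoter. DYNC2H1, the heavy chain that powers return transport, was at 7.19, 4.6 and 5.08 RPKM in NE, 1.41, 1.12 and 1.12 RPKM in ME and 2.37, 3.35 and 2.52 RPKM in hESC. The 3 groups did not overlap, with NE highest and ME lowest. This gave a log2 difference of 0.81 ± 0.16 (limma adjusted p = 0.00305) in NE against hESC, −0.75 ± 0.16 (limma adjusted p = 0.00606) in ME against hESC and 1.56 ± 0.16 (limma adjusted p = 4.91e-05) in NE against ME. The ratio of mean RPKM was 4.62 for NE over ME, the largest of the 30 members. DYNC2LI1, the light intermediate chain, was at 6.85, 5.28 and 6.67 RPKM in NE, 3.1, 3.13 and 3.08 RPKM in ME and 2.09, 2.27 and 2.57 RPKM in hESC. Here the order of ME and hESC was the other way round, again with no overlap among the 3 groups. Its log2 difference was 1.13 ± 0.11 (limma adjusted p = 4.22e-05) in NE against hESC, 0.82 ± 0.11 (limma adjusted p = 0.000254) in NE against ME and 0.31 ± 0.11 (limma adjusted p = 0.0504; 0.0317 without NE replicate 1 and 0.0278 without NE replicate 2) in ME against hESC.

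IFT81, TRAF3IP1 and DYNC2H1 were the 3 members called higher in NE and lower in ME relative to hESC, a pattern that 2.64% of all genes tested shared. A further 12 members were higher in NE than in both other groups and not called in ME against hESC, a pattern of 10.5% of all genes tested: IFT140, WDR19, IFT46, IFT52, IFT74, TTC30A, TTC30B, IFT57, IFT80, IFT172, CLUAP1 and DYNC2LI1. Another 5 members, IFT22, IFT20, KIF3B, KIFAP3 and TULP3, were higher in both derived groups and not called between them, as were 3.3% of all genes tested. The ratio of mean RPKM was at least 2 for 10 members in NE over hESC (10.9% of all genes tested), for 1 in ME over hESC (10%) and for 12 in NE over ME (14.1%). It was at most 0.5 for no member in NE over hESC (13.4% of all genes tested), for 3 in ME over hESC (11%) and for none in NE over ME (14.8%).

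The remaining ciliary genes of related lists gave a mixed picture. Of 8 tested other subunits of dynein-2, which include light chains shared with other motors, 2 were higher in NE than in hESC and none lower, a share of higher genes close to the 21.9% of all genes. DYNLL2, a light chain, was at 68.2, 78.73 and 76.87 RPKM in NE, 32.91, 28.47 and 29.51 RPKM in ME and 33.51, 38.33 and 38.51 RPKM in hESC, with NE apart from both. On the log2 scale the difference was 1.0 ± 0.12 (limma adjusted p = 0.000188) in NE against hESC and 1.27 ± 0.12 (limma adjusted p = 3.27e-05) in NE against ME. TCTEX1D2, another light chain, was also higher in NE than in hESC (1.24 ± 0.28, limma adjusted p = 0.00624). WDR60, an intermediate chain, was lower in ME than in hESC (−0.61 ± 0.11, limma adjusted p = 0.00218). Of the 8 subunits, DYNLL2, WDR34 and WDR60 were higher and none lower in NE than in ME, against 24% and 24.1% of all genes. The call of WDR60 there was lost without each NE replicate in turn (0.052 to 0.0547), without ME replicate 2 (0.0789) or 3 (0.0903), with a replicate block over all 9 libraries (0.0596) and with small RNA genes dropped (0.11).

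The BBSome is a coat that rides on IFT trains and takes membrane proteins out of the cilium. Of its 8 tested subunits, 5 were higher in NE than in hESC and none lower, with 1 higher and 1 lower in ME than in hESC. Over all genes tested, 21.9% were higher and 22.3% lower in NE, and 17% higher and 18.1% lower in ME, each against hESC. The ME counts were thus near the shares of all genes. The same shares apply to the other lists below. Of the GTPase ARL6, which recruits the coat, and its regulator LZTFL1, on the same list, LZTFL1 was higher in NE than in hESC. BBS2 was at 8.23, 9.49 and 9.66 RPKM in NE, 4.53, 4.48 and 4.75 RPKM in ME and 3.91, 3.56 and 3.84 RPKM in hESC. Its NE libraries were above all others (log2 difference 1.08 ± 0.09 against hESC, limma adjusted p = 1.81e-05). BBS5, which averaged 0.353 RPKM in ME and 0.223 RPKM in hESC, passed the filter only through NE. It was higher in NE than in hESC by 1.02 ± 0.12 (limma adjusted p = 0.000132). BBS4 was lower and BBS9 higher in ME than in hESC (−0.78, limma adjusted p = 0.000588, and 0.69, limma adjusted p = 0.00373), and BBS9 was the only gene of the list that was lower in NE than in ME. Among 8 tested kinases and entry factors of IFT, 5 were higher in NE than in hESC and none lower, led by the kinases MOK (0.97, limma adjusted p = 0.000769) and CDK20 (0.79, limma adjusted p = 0.000646). None of these 8 was called in ME against hESC. Of 4 tested further kinesins of cilia, KIF24 and KIF27 were higher in NE than in hESC (0.87 and 0.54, limma adjusted p = 7.25e-05 and 0.00298).

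Of 8 tested transcription factors, which were members of the RFX family, FOXJ1 and GLIS3, 6 were higher in NE than in hESC and none lower. In NE against ME, 7 were higher and none lower. The shares of all genes tested that were higher were 21.9% and 24%. RFX4 and GLIS3, each under 0.5 RPKM on average in ME and in hESC, passed the filter only through NE. They could therefore be counted only as higher in NE. RFX4, a neural member of the RFX family, was at 10.77, 15.56 and 15.92 RPKM in NE, 0.04, 0.08 and 0.05 RPKM in ME and 0.13, 0.21 and 0.11 RPKM in hESC. All ME and hESC values were at or under 0.21 RPKM, and every NE library was above 10 RPKM. The fitted log2 difference was 3.70 ± 0.14 (limma adjusted p = 1.89e-07) in NE against hESC, on a scale that understates changes of low genes. RFX3, an X-box factor needed for cilia in the mouse embryo, was at 19.13, 22.2 and 20.89 RPKM in NE, 6.93, 5.18 and 5.98 RPKM in ME and 6.57, 7.69 and 7.05 RPKM in hESC. NE was apart from both other groups, which overlapped. This gave a log2 difference of 1.42 ± 0.12 (limma adjusted p = 1.87e-05) in NE against hESC. RFX2 was at 2.1, 3.54 and 3.48 RPKM in NE, 0.52, 0.39 and 0.66 RPKM in ME and 1.45, 1.2 and 1.36 RPKM in hESC. The 3 groups did not overlap, with calls of 0.77 ± 0.15 (limma adjusted p = 0.00326) in NE and −0.62 (limma adjusted p = 0.0126) in ME, both against hESC. GLIS3, a zinc finger factor, was at 3.42, 3.68 and 3.37 RPKM in NE, 0.16, 0.04 and 0.15 RPKM in ME and 0.17, 0.4 and 0.11 RPKM in hESC, a log2 difference of 1.88 ± 0.11 in NE against hESC (limma adjusted p = 1.83e-06). The levels of these factors and of the members were compared only as group values, and no test linked them.

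**Figure D4:**
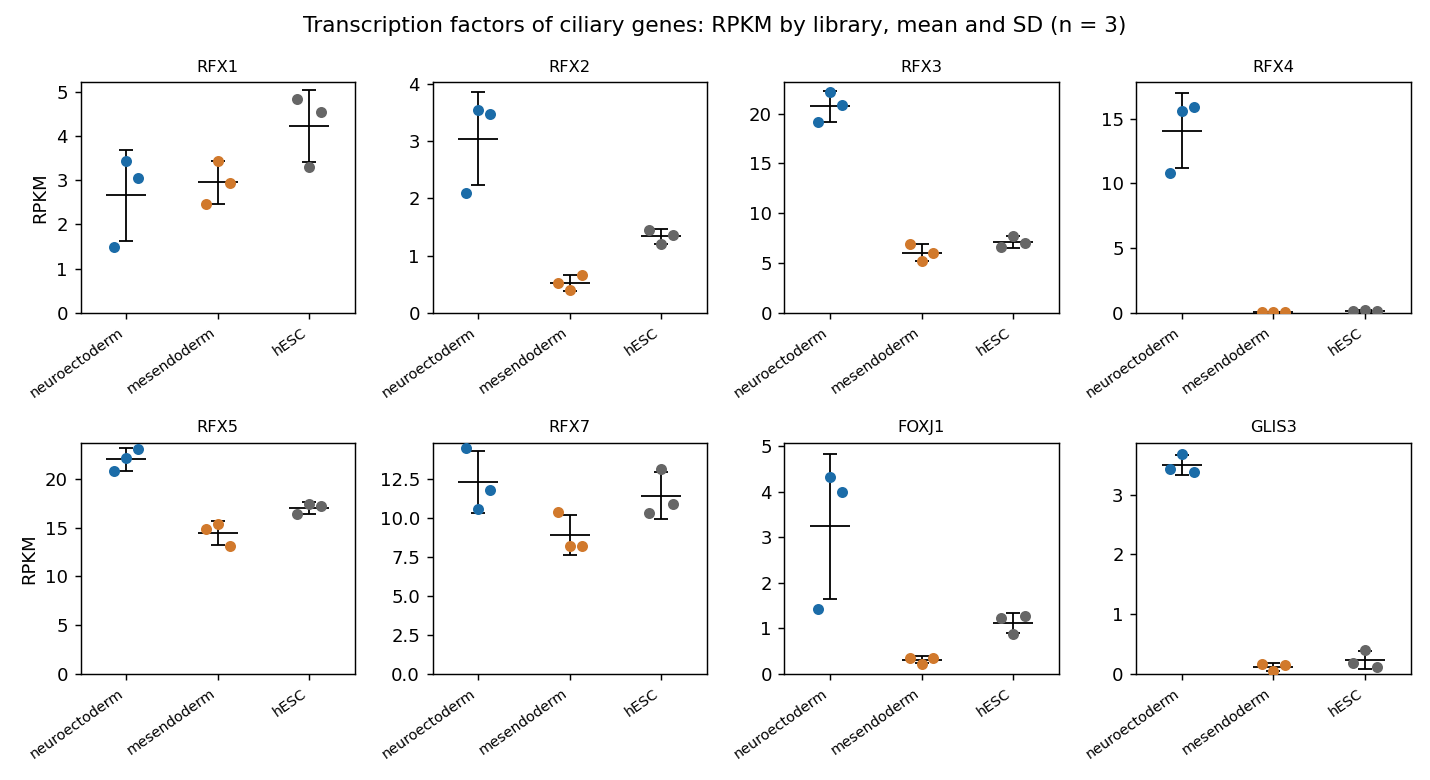
Levels in RPKM (linear axes from 0) of the 8 listed transcription factors in every library, with NE at the left, ME next and hESC at the right. Points are libraries, and bars show the group mean and SD (n = 3). RFX4 (10.77 to 15.92 RPKM) and GLIS3 (3.37 to 3.68 RPKM) in NE stand apart from their levels in ME and hESC, all at or under 0.4 RPKM.

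FOXJ1, the factor that switches on the genes of motile cilia, was at 1.41, 4.32 and 4 RPKM in NE, 0.34, 0.22 and 0.35 RPKM in ME and 1.23, 0.86 and 1.26 RPKM in hESC. NE was above both groups, but its replicate 1 was near hESC. The log2 difference was 0.92 ± 0.27 (limma adjusted p = 0.0204) in NE against hESC, lost without hESC replicate 2 (0.0632), NE replicate 2 (0.0654) or NE replicate 3 (0.074) and with only these groups in the fit (0.0526), and in ME against hESC it was −0.70 (limma adjusted p = 0.0734; 0.000792 without NE replicate 1). Of 15 listed genes of motile cilia, FOXJ1 among them, only 4 passed the filter on low values. HYDIN, of the central pair, was higher in NE than in hESC (1.17, limma adjusted p = 3.54e-05). It averaged 0.107 RPKM in ME and 0.593 RPKM in hESC, and reached the filter only through NE. CCDC40, which helps assemble inner dynein arms, was also higher in NE than in hESC (0.47, limma adjusted p = 0.0194). With FOXJ1, 3 were higher and 1 lower, against 21.9% and 22.3% of all genes tested. DNAH11, an axonemal dynein, was lower in NE (−0.60, limma adjusted p = 0.00343) and higher in ME (0.78, limma adjusted p = 0.00102) than in hESC. It averaged 0.0967 RPKM in NE and 0.663 RPKM in hESC, and reached the filter only through ME. Counts over these 4 genes are thus no test of the list. CCDC40 and HYDIN were lower in ME than in hESC (−0.48 and −0.52, limma adjusted p = 0.0222 and 0.00536). The summed level of the list was 9.59 to 14.42 RPKM in NE, 4.35 to 4.96 RPKM in ME and 6.22 to 7.34 RPKM in hESC.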

How the data were processed

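The values are RPKM per RefSeq transcript (38759 rows) that the authors computed and deposited, rounded to 2 decimals. Per the submitters' processing notes, TopHat, TopHat2 2.0.13 and Bowtie2 were used with build hg19; for the counting tool, strand use and multiply matching reads, nothing is given in the sources used here. Per the labels' protocols, DNase-treated total RNA was depleted of ribosomal RNA and made into Ion Torrent libraries. Without strand, reads of overlapping genes on opposite strands cannot be told apart.

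For each of 21417 symbols the transcript with the highest mean was used, and the test covered the 14473 genes whose mean reached 0.5 RPKM. All 9 libraries entered a limma 3.58.1 fit (R 4.3.3, trend) on log2(RPKM + 1) with group as the term, and p-values were adjusted over all genes tested; this scale understates changes of low genes. RPKM values are not counts, so no count test was run. On data simulated for NE against hESC over 14473 genes, 72 of 100 genes changed by 1 on the log2 scale and 92 of 100 changed by 2 were recovered. Only these genes were changed there, with noise drawn independently for each gene, whereas 44.2% of all genes were called in the data. The rates therefore do not give the sensitivity of the reported fit. Depth was recovered from short genes, where 93.3% to 96.6% of values were whole reads within 0.1 read. The members and lists were chosen with earlier results of these data known. Values of every library are given for up to 2 called members per complex and comparison with the largest change, for IFT88 and KIF3A, and for related lists up to 2 genes are named. Exon overlaps were read from GENCODE and promoters from RefSeq (GRCh38.p14).

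Deviations from the group means of same-numbered NE and ME libraries correlated at 0.392, 0.247 and 0.229 over the genes tested, so a replicate block was tried for these groups. The main fit had group as its only term. Different-numbered libraries could be as close (0.241 for NE replicate 3 with ME replicate 2), so only replicate 1 stands apart in both groups. The highest correlation, 0.787, was that of hESC replicate 2 with NE replicate 1. The numbers thus do not show that samples were paired. Same-numbered libraries of NE and hESC (−0.616, −0.738 and 0.401) and of ME and hESC (−0.485, −0.295 and 0.0583) did not deviate together throughout. In NE against ME, a replicate block over those 6 libraries, added after the data were seen, left 19 members higher. Calls in either direction were then 46.5% of all genes. Tried alternatives were the scaling, pseudocount, filter, transcript choice, samples in the fit, the block and leaving out each library.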

Additional observations from a re-analysis of the deposited data

Results flagged for a closer look

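IFT81, TRAF3IP1 and DYNC2H1 were called higher in NE and lower in ME relative to hESC. The hESC were taken at day 0 and no untreated day 5 group was included. Treatment and time in culture therefore cannot be told apart in either contrast with hESC. The direct comparison of NE with ME is given for its size only, since both contrasts share the hESC libraries. Its call followed from the choice of these members: all 382 genes tested with this pattern were called higher in NE than in ME. The log2 difference of NE minus ME was 1.69 for IFT81, 0.685 for TRAF3IP1 and 1.56 for DYNC2H1, and all 3 NE libraries were above all 3 ME libraries for each (limma adjusted p = 6.76e-06, 0.00035 and 4.91e-05). Of the 6 single calls against hESC behind this, those of DYNC2H1 passed under every setting tried, as did IFT81 in NE and TRAF3IP1 in ME. Those of IFT81 in ME and TRAF3IP1 in NE did not. With 3 libraries a group, no test for a single outlying library was made.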

How the results depend on the processing

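Left-out libraries gave 19 to 22 higher and 0 to 1 lower members in NE against hESC. Calls in either direction were then 34.7% to 51.3% of all genes. In ME against hESC, 1 to 7 members were higher and 5 to 8 lower, with 24.9% to 46.4% of all genes called. In NE against ME, 18 to 22 were higher, with 38.2% to 51.9% of all genes called, and no member was lower under any setting. In the same order, the medians ranged from 0.581 to 0.663, from −0.0679 to −0.0213 and from 0.663 to 0.718. When small RNA genes were dropped before rescaling, 1 member (KIF17) was lower in NE and 1 higher in ME against hESC, and the medians were 0.489 in NE and −0.153 in ME. IFT52 (0.108), IFT74 (0.0841), KIF3B (0.138) and WDR19 (0.0653) lost their call in NE against hESC under that setting alone. Median-of-ratios scaling gave 1 lower member in NE against hESC, again KIF17, with 45.6% of all genes called in either direction. Without a filter, 3 members were higher in ME against hESC, where 26.6% of all genes were called in either direction. Without the 3 libraries that stood apart, 1 member (KIF17) was lower in NE and 10 were lower in ME against hESC. The medians were then 0.704 in NE against hESC and 0.751 in NE against ME. Pseudocounts of 0.1 and 0.5 gave medians of 0.711 and 0.652 in NE against hESC and of 0.892 and 0.806 in NE against ME. With a replicate block over all 9 libraries, 20 members were higher in NE against hESC, 2 in ME against hESC and 20 in NE against ME. Of all genes, 39%, 29.2% and 43.2% were then called in either direction. Since the replicate numbers do not show paired samples, lost calls are not read as weaker effects. The cause of these shifts was not tested.

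Changes of sign occurred only for uncalled differences. Without the 3 libraries that stood apart these were IFT27 in NE against hESC (0.137), HSPB11 (0.026), TTC26 (−0.0154) and IFT80 (0.066) in ME against hESC, and IFT43 in NE against ME (0.228). With small RNA genes dropped they were TTC26 (−0.00151), IFT172 (−0.0171) and CLUAP1 (−0.044) in ME against hESC. Over left-out libraries, IFT27 ranged from −0.435 to 0.286 in NE against hESC. In ME against hESC, IFT140 ranged from −0.102 to 0.0232, HSPB11 from −0.0995 to 0.0985 and IFT80 from −0.114 to 0.104. In NE against ME, IFT43 ranged from −0.298 to 0.245, IFT22 from −0.0344 to 0.214, IFT27 from −0.188 to 0.533 and KIFAP3 from −0.0692 to 0.236. All members were above the level of 3 reads on a 1 kb transcript in every library.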
